A study of Mus musculus with 25 samples.

Results

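Transcripts of lymphocytes and plasma cells were followed in the ageing mouse brain through 7 genes, chosen by symbol from the 47729 genes of the count table: the immunoglobulin genes Igkc, Igha and Ighm, the B cell receptor gene Cd79b, the chemokine gene Ccl5, the cytotoxic granule gene Nkg7 and the T cell receptor gene Trbc2. The 25 libraries hold RNA from the brain hemisphere of male C57BL/6 mice, an inbred strain, with 5 libraries each at 2, 9, 15, 24 and 30 months of age, with no treatment or altered allele in the labels. The labels do not say in words that each library is a separate animal, so p-values measure the spread between these libraries. Library totals ran from 17800113 to 31261121 counts. Levels are CPM (counts scaled to library size) after TMM scaling of the libraries, and fold changes are log2, older over younger. A change was called at an adjusted p under 0.05 in edgeR's quasi-likelihood test with Benjamini-Hochberg adjustment over all 17799 genes that passed a filter on low counts. That filter kept 6 of the 7 genes and left out Nkg7.

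B cells carry immunoglobulin on their surface as part of the B cell receptor, and plasma cells, which descend from them, secrete it as antibody. Each complete immunoglobulin transcript joins 1 variable (V) segment, picked when the B cell formed, to a constant region that names the class. That is Ighm for IgM, Igha for IgA, and Igkc for the kappa light chain that pairs with either. Reads of a constant gene alone do not show such a join. Cells of 1 clone share the same V segments. T cells carry a receptor built in the same way, and cytotoxic T cells and natural killer cells share a set of granule and chemokine genes. In the brain, lymphocytes are few in young animals and sit mainly at the borders, in the meninges, the choroid plexus and around vessels, so a whole hemisphere can hold some of them without any in the tissue itself. In bulk RNA, more cells of a type and more RNA per cell cannot be told apart.

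Brain genes were abundant in every library, with Snap25, a synaptic protein, at 1662 to 2905 CPM. Replicates 2 to 5 of 30 months stood apart from the other 21 libraries, because their counts leaned to genes of high GC content. Among 15224 protein-coding genes tested, the median log2 level, relative to the libraries of 2 to 24 months, of the 10% of genes richest in GC minus that of the 10% poorest was 1.03 to 1.84 in these 4 libraries and -0.243 to 0.148 in the others, so calls of 30 months are also given without them, in a fit where the 1 library left at that age is assumed to vary like the other ages. A call of 30 months lost in that fit can reflect the smaller number of libraries, and why it was lost was not tested. The 10 liver genes summed to 55.2 to 254.9 CPM in the 24 month libraries, against 1.12 to 188 at 2 months. Choroid plexus genes summed to at least 457 CPM in all libraries but replicate 1 of 9 months, which had 55.2 CPM.

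The levels of the 7 genes differed widely per length of transcript. At 2 months Ighm stood at 14.9 CPM per kilobase, Trbc2 at 4.53 and Igkc at 1.48 CPM per kilobase. Cd79b, Igha, Ccl5 and Nkg7 stood at 0.0887 to 0.262 CPM per kilobase. Igkc reached 10 counts in 14 of the 15 libraries of 2 to 15 months, Igha, Cd79b and Ccl5 in 2 of 15 each, and Nkg7 in 0 of 15, so the young levels of those 4 rest on a few reads. No exon of the 7 genes overlapped an exon of another annotated gene.

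From 2 to 15 months no change was called. In 9 with 2 months, 15 with 2 months and 15 with 9 months, 0 of the 6 tested genes passed, at adjusted p of 0.502 to 0.969, 0.472 to 0.889 and 0.601 to 0.993. In edgeR 0 of 6 reached an unadjusted p under 0.05 in each, and DESeq2 and limma-voom also called 0. In 15 with 2 months 2 of 6 under DESeq2 and 1 of 6 under limma-voom had an unadjusted p under 0.05. So did 1982 and 2206 of all 17799 genes. With only the ages compared fitted, edgeR called 0. There 2 of 6 in 15 with 2 months and 3 of 6 in 15 with 9 months had an unadjusted p under 0.05. Over all genes, 2.38% passed in 9 with 2 months, 1.26% in 15 with 2 months and 0.0169% in 15 with 9 months.

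At 24 months 3 of the 6 tested genes were higher than at 2 months, Igkc, Ccl5 and Cd79b. In that comparison 5.23% of all tested genes passed in either direction and 3.38% were higher. These genes, and the gene lists below, were chosen with earlier results of these data known. Their counts beside the share of all genes are therefore descriptions, not independent support. Ccl5 and Cd79b also reached 10 counts in 8 libraries each, and Igha in 6. For each of these genes only 2 of those libraries were among the 15 of 2 to 15 months. At 30 months 3 of 6 were again higher than at 2 months, Igkc, Ccl5 and Igha. There, however, 58.0% of all tested genes passed and 28.5% were higher, so a count of 3 says little about these genes. The values by library show how unevenly the libraries contributed.

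**Figure D1:**
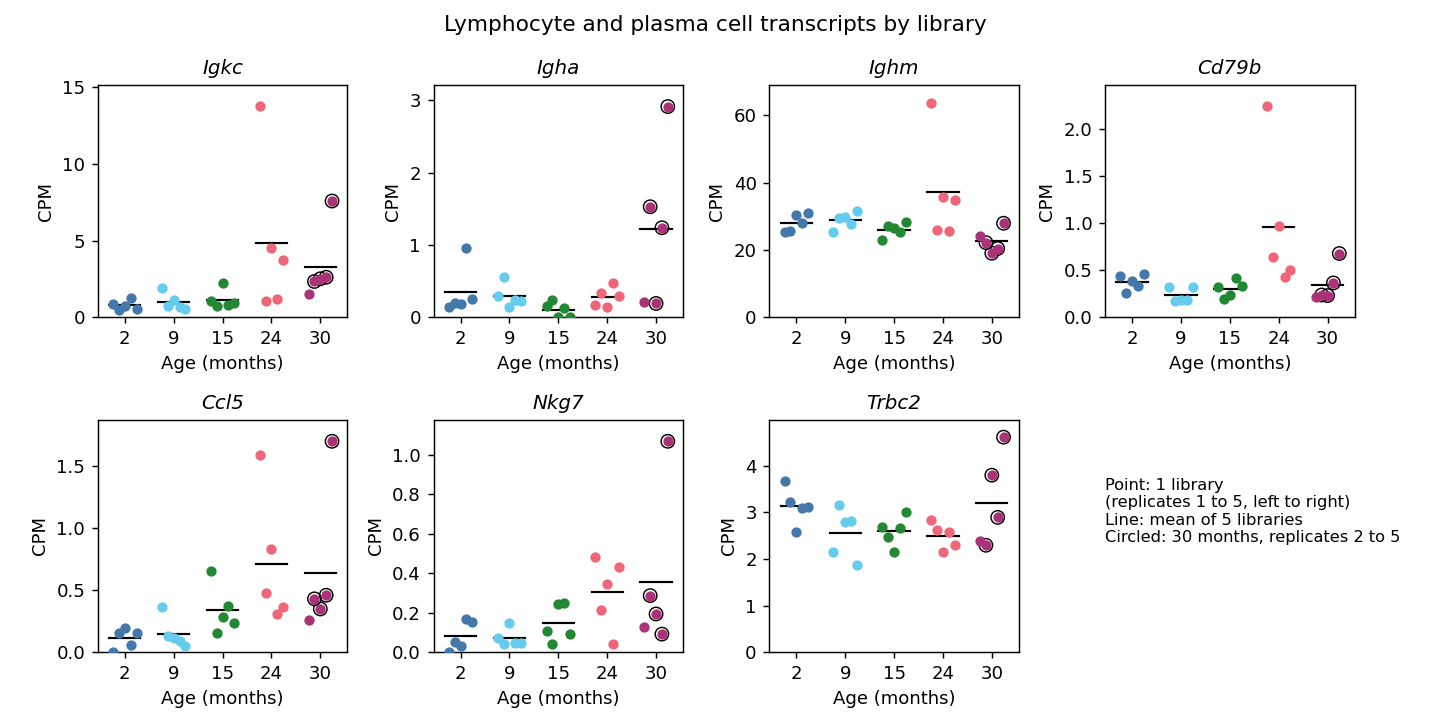
Level of each of the 7 genes in every library, in CPM after TMM scaling, by age in months. Points are libraries (replicates 1 to 5 from left to right), lines are means of 5 libraries, and circled points are replicates 2 to 5 of 30 months. Replicate 1 of 24 months is highest for Igkc, Ighm and Cd79b, and replicate 5 of 30 months for Igha, Ccl5, Nkg7 and Trbc2.

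Igkc (ENSMUSG00000076609, GRCm38 chromosome 6, 70726435 to 70726966, plus strand), the constant region of the kappa light chain, rose at both late ages. It stood at 0.879, 0.459, 0.739, 1.29 and 0.563 CPM in the 2 month libraries, at 0.560 to 1.89 CPM at 9 months and at 1.04, 0.745, 2.23, 0.832 and 0.942 CPM at 15 months. At 24 months it stood at 13.7, 1.08, 4.53, 1.22 and 3.76 CPM, and at 30 months at 1.50, 2.34, 2.52, 2.62 and 7.58 CPM. Replicates 1, 3 and 5 of 24 months lay above every younger library, while replicates 2 and 4 lay within their range. All 5 libraries of 30 months lay above all 5 of 2 months.

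The mean of Igkc was 4.87 ± 5.19 CPM at 24 months and 0.787 ± 0.326 CPM at 2 months (SD, n = 5 each), a log2 fold change of 2.66 ± 0.60 (SE, edgeR adjusted p = 0.00953). At 30 months the mean was 3.31 ± 2.43 CPM and the log2 fold change over 2 months 2.07 ± 0.62 (SE, edgeR adjusted p = 0.00665). For 24 with 15 months the log2 fold change was 2.08 (edgeR adjusted p = 0.0658). Without replicate 1 of 24 months, which held 397 of the 694 Igkc counts of that age, the log2 fold change over 2 months was 1.78 (edgeR adjusted p = 0.056). Without replicate 5 of 30 months the value for 30 with 2 months was 1.52 (edgeR adjusted p = 0.0566), and without the 4 libraries of high GC content it was 0.94 ± 1.25 (SE, edgeR adjusted p = 0.731).

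Igha (ENSMUSG00000095079, chromosome 12, 113254830 to 113260236, minus strand), the constant region of IgA, the antibody class of mucosal surfaces, was high in 3 libraries of the oldest group alone. It stood at 0.147, 0.204, 0.193, 0.956 and 0.256 CPM at 2 months, at 0.151 to 0.556 CPM at 9 months and at 0.173, 0.345, 0.138, 0.479 and 0.300 CPM at 24 months. At 30 months it stood at 0.214, 1.53, 0.194, 1.24 and 2.91 CPM. Replicates 2, 4 and 5 of 30 months, with 32, 27 and 60 counts, lay above all younger libraries, and replicates 1 and 3, with 5 counts each, lay among them. The 15 month libraries held 0 to 6 counts.

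The log2 fold change of Igha was 1.83 ± 0.62 (SE, edgeR adjusted p = 0.0140) for 30 with 2 months, with means of 1.22 ± 1.12 and 0.351 ± 0.340 CPM (SD, n = 5 each). Over 24 months it was 2.07 ± 0.61 (SE, edgeR adjusted p = 0.00605), and between 24 and 2 months -0.24 ± 0.74 (SE, edgeR adjusted p = 0.916). The 3 high libraries are among the 4 of high GC content, whose part in the result was not tested. The remaining library of 30 months gave a log2 fold change of -0.61 over 2 months and of -0.38 over 24 months (edgeR adjusted p = 0.786 and 0.914). Without replicate 5 alone the value over 2 months was 1.21 (edgeR adjusted p = 0.105) and that over 24 months 1.45 (edgeR adjusted p = 0.0527).

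Ighm (ENSMUSG00000076617, chromosome 12, 113418558 to 113422730, minus strand), the constant region of IgM, was even across the young libraries. It stood between 22.9 and 31.6 CPM in all 15 libraries of 2 to 15 months. Its counts there were 418 to 942 per library, beside 0 to 14 counts of all heavy chain V segments together. Which cells or transcripts these Ighm reads came from was not tested. At 24 months Ighm stood at 63.4, 26.0, 35.6, 25.6 and 34.7 CPM, with 1832 counts in replicate 1. Replicates 1, 3 and 5, the same libraries that were high for Igkc, lay above all younger libraries, and replicates 2 and 4 lay among them. At 30 months it stood at 24.3, 22.2, 19.0, 20.4 and 27.9 CPM.

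The log2 fold change of Ighm was 0.41 ± 0.17 (SE, edgeR adjusted p = 0.169) for 24 with 2 months and -0.30 ± 0.17 (SE, edgeR adjusted p = 0.128) for 30 with 2 months. Without replicate 1 of 24 months it was 0.12 and -0.31, and the second of these passed (edgeR adjusted p = 0.0154). The value for 30 with 2 months was -0.21 (edgeR adjusted p = 0.792) without the 4 libraries of high GC content. For 30 with 24 months it fell by 0.71 on the log2 scale (edgeR adjusted p = 0.0011), to a mean of 22.8 ± 3.49 CPM at 30 months against 37.1 ± 15.5 CPM at 24 months (SD, n = 5 each). With all libraries Igha and Ighm thus differed in opposite directions between the same ages. Without the 4 libraries of high GC content, which leaves 1 library of 30 months, both went the same way. The log2 fold changes for 30 with 24 months were then -0.38 for Igha and -0.63 for Ighm.

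Other constant genes were also high in single libraries. Of 12 listed genes 6 were tested, and 2 were higher at 24 than at 2 months, Igkc and Ighg2c, against 3.38% of all genes. The median log2 fold change of the 6 was 0.79, against 0.00 over all genes. Ighg2c, a class of IgG, rose by 0.99 ± 0.23 (SE, edgeR adjusted p = 0.0115), and by 1.12 (edgeR adjusted p = 0.0061) without replicate 1 of 24 months. It averaged 5.10 ± 2.42 CPM at 24 months and 2.56 ± 0.336 CPM at 2 months (SD, n = 5 each), and was highest, at 9.31 CPM, in replicate 3 of 24 months.

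Ighg2b, another IgG class, was close to absent in the young brain. Its counts were 0 to 4 in each of the 15 libraries of 2 to 15 months, 2, 14, 18, 9 and 11 at 24 months, and 9, 10, 39, 12 and 85 at 30 months. Ighg2b therefore passed the filter on low counts (minimum count 10) only through the older libraries. Its tests are descriptions, not independent support. All 5 libraries of 30 months lay above all younger ones but those of 24 months. Its log2 fold change was 2.38 ± 0.93 (SE, edgeR adjusted p = 0.149) for 24 with 2 months and 4.15 ± 0.79 (SE, edgeR adjusted p = 0.000119) for 30 with 2 months, and 3.26 (edgeR adjusted p = 0.000345) in the second pair without replicate 5 of 30 months. The call of 30 with 2 months was lost without the 4 libraries of high GC content, at 2.31 (edgeR adjusted p = 0.165). Replicate 1 of 24 months, the highest for Igkc and Ighm, held only 2 Ighg2b counts, while replicate 5 of 30 months held 85 together with the most Igha.

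The lambda light chain gene Iglc2 had 31 and 44 counts in replicates 1 and 3 of 24 months and 35 in replicate 5 of 30 months, but at most 3 in any other library. Ighe, the constant gene of IgE, had 0 counts throughout. At 30 months 4 of 6 tested constant genes were higher than at 2 months, Igkc, Igha, Ighg2b and Ighg2c, against 28.5% of all genes. Without replicate 5 of 30 months 1 of 6 was higher, and without the 4 libraries of high GC content edgeR called 0 of 6, with 1 at an unadjusted p under 0.05.

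**Figure D2:**
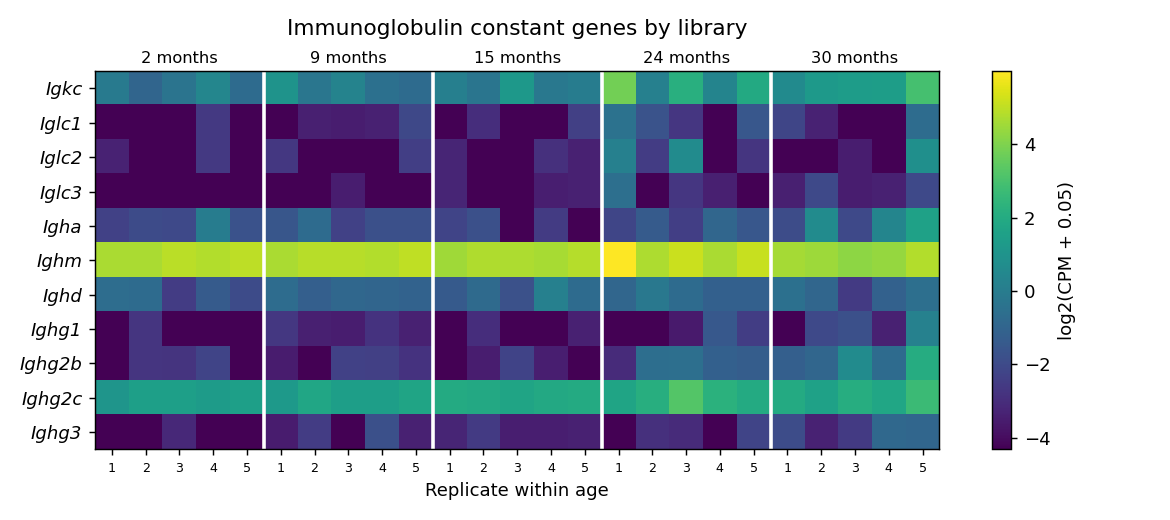
Immunoglobulin constant genes with any count, by library, as log2(CPM + 0.05). Columns are libraries by age and replicate, and colour runs from dark (low) to bright (high). Replicate 1 of 24 months is brightest for Igkc and Ighm, and replicate 5 of 30 months for Igha and Ighg2b.

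B cell clones differ in the V segments they use, but unrelated clones can use the same segment. Gene counts do not read the joined sequence, so a segment's share does not identify a clone. Single segments had too few counts to test 1 by 1, so the 348 annotated immunoglobulin V segments were summed in each library. The sums were 13, 14, 21, 26 and 6 counts at 2 months, 27, 13, 26, 19 and 6 at 9 months, and 9, 22, 48, 15 and 10 at 15 months. They were 352, 38, 181, 23 and 99 counts at 24 months and 27, 23, 41, 64 and 125 at 30 months. Replicates 1, 3 and 5 of 24 months and replicates 4 and 5 of 30 months exceeded every library of 2 to 15 months.

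In log2(summed CPM + 0.05) the sum differed by 2.23 between 24 and 2 months (exact permutation test, two-sided, p = 0.0159, adjusted p = 0.0952 over 8 tests of summed segments). Between 30 and 2 months it differed by 1.53 (exact permutation test, p = 0.0238, adjusted p = 0.0952). Neither passed after adjustment, and the smallest p that 5 against 5 libraries can give is 0.00794. For 9 and 15 with 2 months the differences were -0.01 and 0.15 (exact permutation test, adjusted p = 1 and 0.907).

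In replicate 1 of 24 months 1 kappa and 1 heavy chain segment supplied nearly all V counts. Igkv6-15 held 210 of its 232 kappa V counts (90.5%, exact 95% interval 86.0 to 94.0), and Ighv1-81 held 105 of its 109 heavy chain V counts (96.3%, 90.9 to 99.0). These intervals cover counting error only. With each library's own 2 largest segments left out, the V counts were 37, 32, 107, 19 and 81 in replicates 1 to 5 of 24 months. In the 15 libraries of 2 to 15 months Igkv6-15 had at most 4 counts and Ighv1-81 at most 2.

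The reference sequences of these segments show what sets their reads apart from the nearest relative, since a near-identical copy could draw reads. They are the spliced germline transcripts of the GENCODE M21 annotation on GRCm38, 5′ to 3′, not the rearranged sequence of the library, shown from base 1 to base 300, and capitals mark the bases that differ from the most similar annotated segment.
Igkv6-15: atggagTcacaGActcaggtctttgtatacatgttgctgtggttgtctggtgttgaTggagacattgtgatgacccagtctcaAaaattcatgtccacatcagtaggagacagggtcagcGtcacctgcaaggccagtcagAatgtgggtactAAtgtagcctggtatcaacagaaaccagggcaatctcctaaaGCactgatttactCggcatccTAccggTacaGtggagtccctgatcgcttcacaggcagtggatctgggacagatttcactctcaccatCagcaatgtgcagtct
Ighv1-81: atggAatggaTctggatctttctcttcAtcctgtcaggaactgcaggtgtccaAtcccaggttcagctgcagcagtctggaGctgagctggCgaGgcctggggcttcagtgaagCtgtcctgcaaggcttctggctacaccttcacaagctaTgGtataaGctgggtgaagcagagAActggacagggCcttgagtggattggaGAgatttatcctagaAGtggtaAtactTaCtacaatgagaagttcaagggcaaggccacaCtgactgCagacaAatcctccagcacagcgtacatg

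Igkv6-15 (ENSMUSG00000094797) lies at chr6:70406469-70406992 on the minus strand, and its whole transcript of 347 bases differs from Igkv6-23 at 19 of them. Ighv1-81 (ENSMUSG00000094689) lies at chr12:115920279-115920712 on the minus strand, and its whole transcript of 351 bases differs from Ighv1-85 at 25. The nearest segment held 2 counts for Igkv6-15 and 0 for Ighv1-81 over replicates 1, 3 and 5 of 24 months.

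V counts were spread over more segments in the other libraries of high Igkc. In replicate 3 of 24 months the lambda segment Iglv3 held 51 of 58 lambda V counts (87.9%, exact 95% interval 76.7 to 95.01), and Igkv19-93 held 23 of 81 kappa V counts (28.4%, 18.9 to 39.5). In replicate 5 of 24 months the top heavy chain segment, Ighv1-53, held 12 of 35 counts (34.3%, 19.1 to 52.2). In replicate 5 of 30 months the 2 largest segments of any class held 19 of 125 V counts (15.2%), whereas they held 315 of 352 (89.5%) in replicate 1 of 24 months. The 2 libraries with the most V counts of their age therefore differed in make-up as well as in amount.

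**Figure D3:**
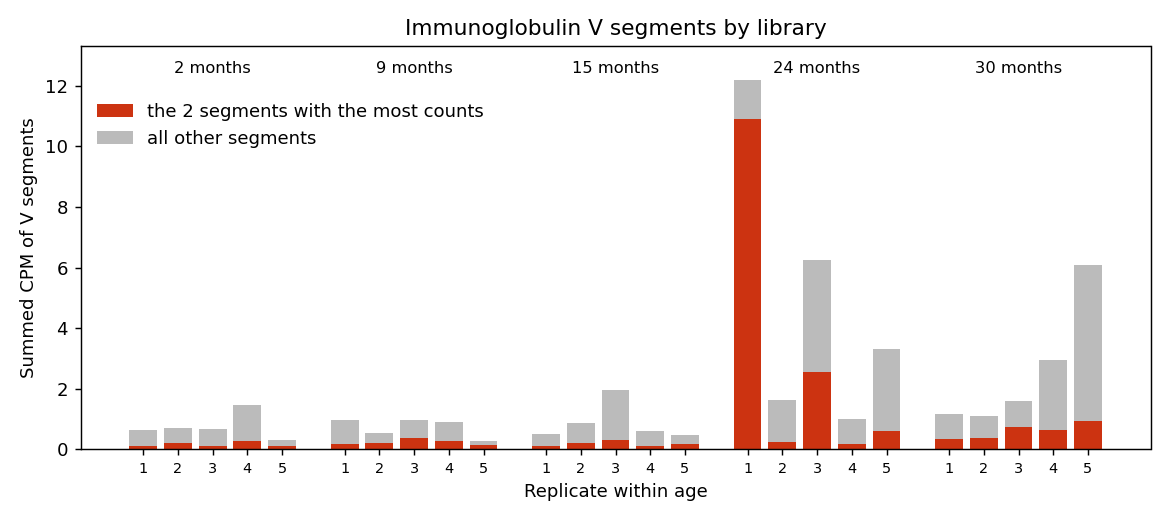
Summed CPM of immunoglobulin V segments in each library, by age and replicate, split into the 2 segments with the most counts in that library and all others. Replicate 1 of 24 months stands at 12.2 CPM, nearly all from 2 segments, while replicate 5 of 30 months stands at 6.07 CPM, mostly from the others.

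Cd79b (ENSMUSG00000040592, chromosome 11, 106311341 to 106314762, minus strand), a signalling chain of the B cell receptor, rose at 24 months, while its difference between 30 and 2 months did not pass. It stood at 0.440, 0.255, 0.385, 0.337 and 0.460 CPM at 2 months, at 0.171 to 0.327 CPM at 9 months and at 0.329, 0.196, 0.243, 0.416 and 0.330 CPM at 15 months. At 24 months it stood at 2.25, 0.646, 0.969, 0.435 and 0.4996 CPM, and at 30 months at 0.214, 0.239, 0.233, 0.367 and 0.680 CPM. The library of replicate 1 of 24 months, with 65 counts, was more than 2 times as high as any other library. The 24 month libraries lay above all 15 month libraries and overlapped those of 2 months in 1 library.

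Its log2 fold change was 1.36 ± 0.39 (SE, edgeR adjusted p = 0.0408) for 24 with 2 months, with means of 0.960 ± 0.750 and 0.376 ± 0.083 CPM (SD, n = 5 each). For 24 with 15 months it was 1.68 ± 0.40 (SE, edgeR adjusted p = 0.0403), the only call among the 6 genes in a comparison where 1.13% of genes passed. For 30 with 24 months it fell by 1.50 on the log2 scale (edgeR adjusted p = 0.00254), and for 30 with 2 months it was -0.15 ± 0.46 (SE, edgeR adjusted p = 0.810). Without the 4 libraries of high GC content these were -2.17 (edgeR adjusted p = 0.161) and -0.80 (edgeR adjusted p = 0.656). Both calls of 24 months sit near the threshold. Leaving out 1 library at a time lost the call over 2 months in 8 of 25 fits, at adjusted p of 0.0509 to 0.210, each of the 2 month replicates among them, and the call over 15 months in 16 of 25, at 0.0509 to 0.141. Without replicate 1 of 24 months the 2 values were 0.76 (edgeR adjusted p = 0.210) and 1.07 (edgeR adjusted p = 0.141).

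Other B cell genes were high in the same library. Of the 15 listed B cell genes 9, Cd79b included, had their highest level of all 25 libraries in replicate 1 of 24 months. So did 9 of 20 T cell genes, 2 of 16 cytotoxic genes, 6 of 22 recruitment and survival genes and 3 of 7 MHC class II genes. How many of all genes were highest in a given library was not counted. Pax5, Bank1 and Ly6d were only a little higher there, at 3.01, 3.29 and 1.38 CPM, than in any library of 2 to 15 months (up to 2.54, 2.80 and 1.24 CPM). The others of the 9 B cell genes stood further above. In replicate 1 of 24 months the B cell list summed to 34.3 CPM, against 18.9 to 22.6 CPM in the other 4 libraries of that age and 18.2 to 19.9 CPM at 2 months. The T cell list summed to 33.6 CPM there, against 22.5 to 27.5 CPM in the other 4. The defining B cell genes Ms4a1 and Cd79a, named here after their values were seen, had 85 and 53 counts in that library. They had 21 and 13 counts in replicate 3 of 24 months and at most 7 and 10 in the libraries of 2 to 15 months. Of the 9 listed B cell genes tested, 3 were higher at 24 than at 2 months, against 3.38% of all genes. The median log2 fold change of the 9 was 0.24. Beside Cd79b the 3 higher genes were Cd22, an inhibitory receptor of B cells that aged mouse microglia also express (1.99 ± 0.31, SE, edgeR adjusted p = 0.000378), and the adaptor Bank1 (0.62 ± 0.17, SE, edgeR adjusted p = 0.036). Without replicate 1 of 24 months Cd22 alone passed, at 1.77.

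In replicate 5 of 30 months B cell genes differed among themselves. It held 156 Igkc, 60 Igha and 85 Ighg2b counts, beside 1 count of Ms4a1 and 7 of Cd79a, within the range of the young libraries. Cd79b, at 0.680 CPM, lay above all libraries of 2 to 15 months there, and Cd37, a membrane protein of B cells and other leukocytes, was at its highest of all 25 libraries, at 1.60 CPM from 33 counts. The B cell list summed to 19.3 CPM in that library. Replicate 1 of 24 months held 397 Igkc counts, but 5 of Igha and 2 of Ighg2b, beside 85 of Ms4a1. Of the 12 listed plasma cell genes 5 had their highest level in replicate 1 of 24 months and 2 in replicate 5 of 30 months. Those 2 were Pim2 and Txndc5, at 46.5 and 93.6 CPM, against up to 33.9 and 73.3 CPM at 2 to 15 months. Mzb1, a chaperone of antibody secretion, and Pou2af1, a B cell transcription coactivator, were named after their values were seen. They had 43 and 52 counts in replicate 1 of 24 months, but 2 and 4 in replicate 5 of 30 months. In the libraries of 2 to 15 months they had at most 5 and 11. Of 9 tested plasma cell genes 1 was higher at 24 than at 2 months, against 3.38% of all genes. This was Irf4, a transcription factor of plasma cell formation that other lymphocytes share (0.93 ± 0.23, SE, edgeR adjusted p = 0.0177). Irf4 did not pass without replicate 1 of 24 months (0.67, edgeR adjusted p = 0.0793). Jchain, which links IgA and IgM subunits, averaged 1.31 ± 0.309 CPM at 24 months and 0.819 ± 0.241 CPM at 2 months (SD, n = 5 each, edgeR adjusted p = 0.0999). It stood at 0.367 to 0.861 CPM at 30 months, where Igha was high.

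Ccl5 (ENSMUSG00000035042, chromosome 11, 83525778 to 83530518, minus strand), a chemokine that memory and cytotoxic T cells make and that draws further leukocytes, rose at both late ages. It stood at 0, 0.153, 0.193, 0.0562 and 0.153 CPM at 2 months, at 0.364, 0.128, 0.113, 0.0941 and 0.0467 CPM at 9 months, and at 0.658, 0.157, 0.284, 0.374 and 0.236 CPM at 15 months. At 24 months it stood at 1.59, 0.474, 0.830, 0.305 and 0.366 CPM, and at 30 months at 0.257, 0.430, 0.349, 0.459 and 1.70 CPM. All libraries of 24 months and all of 30 months lay above all of 2 months. The largest counts were 46 in replicate 1 of 24 months and 35 in replicate 5 of 30 months, against 0 to 6 at 2 months.

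Its log2 fold change was 2.56 ± 0.66 (SE, edgeR adjusted p = 0.0225) for 24 with 2 months, with means of 0.714 ± 0.532 and 0.111 ± 0.080 CPM (SD, n = 5 each). For 30 with 2 months it was 2.34 ± 0.69 (SE, edgeR adjusted p = 0.00562), with a mean of 0.639 ± 0.598 CPM at 30 months. For 15 with 2 months it was 1.43 ± 0.77 (SE, edgeR adjusted p = 0.472). Without replicate 1 of 24 months the first value was 2.02 (edgeR adjusted p = 0.0987), without replicate 1 of 2 months 2.27 (0.0531) and without replicate 4 of 2 months 2.42 (0.0571). For 30 with 2 months Ccl5 was called in all 25 fits that left out 1 library, at adjusted p of 0.00219 to 0.0461. It was 1.08 ± 1.15 (SE, edgeR adjusted p = 0.652) without the 4 libraries of high GC content.

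Nkg7 (ENSMUSG00000004612, chromosome 7, 43437073 to 43438249, plus strand), a granule membrane protein of natural killer and cytotoxic T cells, had the fewest counts. They were 0, 1, 1, 3 and 3 at 2 months and 2, 1, 4, 1 and 1 at 9 months, and 2, 1, 6, 6 and 2 at 15 months. They were 14, 5, 10, 1 and 13 at 24 months and 3, 6, 5, 2 and 22 at 30 months. Replicates 1, 3 and 5 of 24 months and replicate 5 of 30 months exceeded every younger library, while the counts of the others lay within the range of 15 months.

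Nkg7 failed the filter on low counts and so has no test beside the other 6 genes. With no filter its log2 fold change was 2.02 ± 0.70 (SE, edgeR adjusted p = 0.165) for 24 with 2 months and 2.11 ± 0.71 (SE, edgeR adjusted p = 0.0208) for 30 with 2 months, where 32.1% of all genes in that unfiltered table passed. The rest of the cytotoxic list was sparse. Of 16 listed genes 3 were tested, with Ccl5 the 1 higher at 24 than at 2 months, against 3.38% of all genes. The natural killer receptors Ncr1 and Klrb1c had 0 or 1 count in every library and the pore protein Prf1 at most 3. The granzyme Gzmk had 25 counts in replicate 1 of 24 months and at most 14 in any other library of 24 or 30 months.

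Trbc2 (ENSMUSG00000076498, chromosome 6, 41546730 to 41548352, plus strand), a constant region of the T cell receptor beta chain, did not pass over 2 months at either late age, and neither did Ighm. Trbc2 stood at 2.57 to 3.66 CPM at 2 months, 1.87 to 3.16 CPM at 9 months, 2.15 to 3.01 CPM at 15 months, 2.15 to 2.84 CPM at 24 months and 2.30 to 4.61 CPM at 30 months. The ranges of all ages overlapped. Its log2 fold change was -0.32 ± 0.17 (SE, edgeR adjusted p = 0.311) for 24 with 2 months and 0.04 ± 0.17 (SE, edgeR adjusted p = 0.868) for 30 with 2 months, -0.38 in the second pair without the 4 libraries of high GC content. At 24 months the highest library, replicate 1, stood at 2.84 CPM and the next at 2.63 CPM.

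In mouse, transcripts of the T cell receptor beta constant region have also been described in neurons. Which cells the Trbc2 reads came from was not tested. Trbc2 held 40 to 98 counts in every library, and the receptor-associated chains Cd3d, Cd3e and Cd3g held 0 to 6 counts each in the libraries of 2 to 15 months. Its near relative Trbc1, whose sequence matches 603 of the 692 bases of the Trbc2 transcript (87.1%), had 0 to 8 counts. Cd3g, named after the values were seen, had 21 counts in replicate 1 of 24 months and 10 in replicate 3. Cd8a, of cytotoxic T cells, averaged 0.429 ± 0.150 CPM at 24 months, 0.371 ± 0.211 CPM at 30 months and 0.101 ± 0.032 CPM at 2 months (SD, n = 5 each), with no test, because it failed the filter.

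Of the 20 listed T cell genes 9 were tested, and edgeR called 0 of them in 24 with 2 months, although 4 had an unadjusted p under 0.05. DESeq2 and limma-voom called 1 each. At 30 months 4 of 9 were higher than at 2 months, the receptor constant gene Trac (0.77 ± 0.25, SE, edgeR adjusted p = 0.0106), the kinase Zap70, the adaptor Lat and Cd6, against 28.5% of all genes. Without the 4 libraries of high GC content edgeR called 0 of 9, with 0 at an unadjusted p under 0.05, and Trac stood at 0.58 (edgeR adjusted p = 0.452), Zap70 at -0.03 (0.961), Lat at 0.40 (0.685) and Cd6 at 0.42 (0.387). The 170 T cell receptor V segments summed to 34, 10, 14, 15 and 17 counts at 24 months and to 11, 12, 9, 6 and 6 counts at 2 months. The difference in log2(summed CPM + 0.05) was 0.58 (exact permutation test, two-sided, p = 0.0873, adjusted p = 0.233), and 0.32 between 30 and 2 months (exact permutation test, adjusted p = 0.533). No V segment of the T cell receptor held more than 5 counts in a library.

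**Figure D4:**
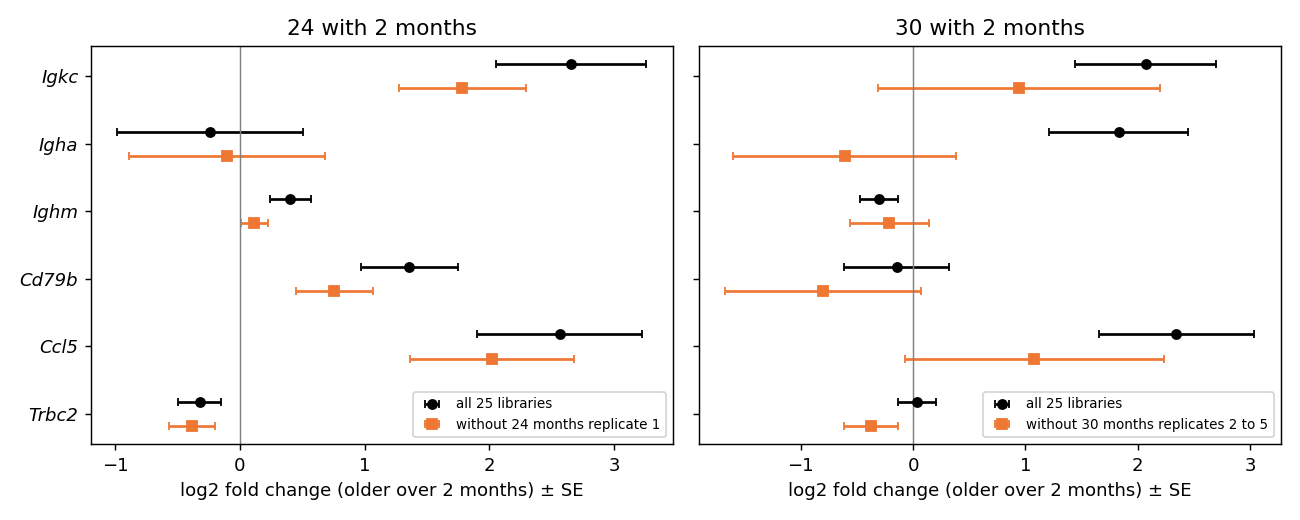
Log2 fold change over 2 months with its SE for the 6 tested genes, at 24 months (left) and 30 months (right). Black points use all 25 libraries, orange points leave out replicate 1 of 24 months (left) or replicates 2 to 5 of 30 months (right). Without them Igkc and Ccl5 stand at 1.78 and 2.02 at 24 months and at 0.94 and 1.08 at 30 months, none of them past the test, and Igha at 30 months stands at -0.61.

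The calls at 24 months rest on few libraries. Without replicate 1 of 24 months 0 of the 6 genes were called in 24 with 2 months by edgeR, although 4 had an unadjusted p under 0.05, and 3.17% of all genes passed. Without replicate 1 or replicate 4 of 2 months 1 of 6 was called, Igkc, with no share of all genes given for those fits. Liver transcripts summed to 75.9, 213, 55.2, 210 and 254.9 CPM in replicates 1 to 5 of 24 months, lowest in the 2 libraries with the most Igkc. With the liver level as a covariate the same number of genes, 3 of 6, was called in 24 with 2 months. The liver sum itself had medians of 5.17 CPM at 2 months and 210 CPM at 24 months, so that fit cannot separate liver level from age. Hemoglobin and other red blood cell transcripts, which mark blood left in the tissue, summed to 91.8, 51.7, 165, 46.3 and 64.6 CPM in replicates 1 to 5 of 24 months. They summed to 40.0 to 69.7 CPM at 2 months, 34.2 to 203 CPM at 9 months, 32.7 to 78.5 CPM at 15 months and 35.1 to 117 CPM at 30 months. Within 24 months these sums were highest in replicates 1 and 3, the 2 libraries with the most Igkc. At 9 months, where the sums reached 203 CPM, Igkc stood at no more than 1.89 CPM. The part of liver or blood transcripts in the result was not tested.

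At 30 months the calls depended on which libraries were kept. In the fit without the 4 libraries 0 of 6 genes were called in 30 with 2 months and 0 of 6 in 30 with 24 months by edgeR, with 0 and 1 at an unadjusted p under 0.05, where 7.29% and 2.35% of all genes passed. With all libraries 54.5% of genes passed in 30 with 24 months, and 3 of 6 here, Igha, Cd79b and Ighm. The same reduced fit called 3 of 6 in 24 with 2 months and 2 of 6, Igkc and Cd79b, in 24 with 15 months, where 22.2% and 23.7% of all genes passed. Without replicate 5 of 30 months 1 of 6 was called in 30 with 2 months, Ccl5, where 51.4% of genes passed. In 30 with 24 months that fit still called Cd79b and Ighm, at -1.88 and -0.79 (edgeR adjusted p = 0.000888 and 0.00142). It did not call Igha (edgeR adjusted p = 0.0527). Of all 17799 genes, 3861 were higher and 4667 lower there.

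A linear trend over all 5 ages was called for 3 of 6 genes, against 47.0% of all genes. Igkc rose by 0.98 ± 0.21 per 10 months on the log2 scale (SE, edgeR adjusted p = 0.00103), Ccl5 by 0.95 ± 0.20 (SE, edgeR adjusted p = 0.00105) and Igha by 0.71 ± 0.25 (SE, edgeR adjusted p = 0.0249). Cd79b had a slope of 0.37 ± 0.19 (SE, edgeR adjusted p = 0.0984), and Ighm and Trbc2 had slopes of 0.00 and 0.01. Without the 4 libraries of high GC content, where 16.2% of all genes passed, the slopes of Igkc, Ccl5 and Cd79b were called, at 1.14, 1.04 and 0.62 per 10 months, and that of Igha was -0.18. Igkc and Ccl5 were the genes whose slope passed in both.

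Of 14 tested genes of lymphocyte recruitment and survival 3 were higher at 24 than at 2 months and 11 did not pass, against 3.38% of all genes higher. These were Cxcl13, a chemokine that attracts B cells (2.52 ± 0.71, SE, edgeR adjusted p = 0.0366), Cxcl10, an interferon-induced chemokine for activated T cells (1.85 ± 0.38, SE, edgeR adjusted p = 0.00448), and the B cell survival factor Tnfsf13b (0.56 ± 0.16, SE, edgeR adjusted p = 0.0441). Of the Cxcl13 counts at 24 months, 59 came from replicate 1, and the other 4 libraries had 9 to 17 each. Without that library Cxcl10 alone of the 3 passed, at 1.33 (edgeR adjusted p = 0.0159).

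Of the 7 tested genes of MHC class II, the antigen-presenting molecules of B cells, dendritic cells and activated microglia, 3 were higher at 24 than at 2 months, Cd74, H2-Ab1 and H2-Aa, by 1.003, 0.98 and 0.90, against 3.38% of all genes higher. Cd74 averaged 21.4 ± 11.5 CPM at 24 months and 10.8 ± 1.25 CPM at 2 months (SD, n = 5 each). It was highest, at 41.6 CPM, in replicate 1 of 24 months, and without that library none of the 7 passed, the 3 named ones standing at 0.51 to 0.63 (edgeR adjusted p = 0.120 to 0.214). At 30 months 6 of 7 were higher than at 2 months, against 28.5% of all genes, and 4 of 7 without replicate 5. Without the 4 libraries of high GC content edgeR called 0 of 7, with 0 at an unadjusted p under 0.05, and Cd74 stood at 0.55 (edgeR adjusted p = 0.550).

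Across the 20 libraries of 2 to 24 months, which also differ in age, depth and tissue make-up, the genes whose CPM ranked most like Igkc were Rpl35, Aspg and H2-Ab1, with Spearman correlations of 0.89, 0.86 and 0.83. Those most like Ccl5 were the interferon-induced Usp18 and Gbp2 and the MHC class I gene H2-K1, at 0.89, 0.88 and 0.88. For Cd79b they were Zfp687, Ubxn1 and Cirbp, at 0.87 to 0.90. For Ighm, Igha and Trbc2 the most alike genes stood at 0.78, 0.72 and 0.78. Among the 7 genes themselves, Igkc, Ccl5 and Nkg7 correlated with each other at 0.59 to 0.63. Trbc2 correlated with the other 6 at -0.39 to 0.04, and Igha with the other 6 at -0.19 to 0.06. These correlations are descriptions, chosen from all tested genes, and carry no test.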

How the data were processed

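RNA of brain hemispheres was measured as gene counts in 25 libraries prepared with a TruSeq RNA kit, per the labels' protocols. The authors deposited whole-number counts per gene; CASAVA 1.7, STAR 2.4.1d, featureCounts 1.4.6-p4 and the build GRCm38 are named in the submitters' processing notes, and whether counting used strand is not given in the sources used here. A deposited table of RPKM was not used. Totals were 17800113 to 31261121 counts.

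Ages were taken from the labels, and replicate numbers follow accession order, which pairs nothing. Genes passing filterByExpr (minimum count 10) were fitted in 1 model of 25 libraries with edgeR 4.0.16 (R 4.3.3, limma 3.58.1, TMM scaling, robust quasi-likelihood, 1 mean per age), adjusted over all 17799 genes, and the procedure was tested on simulated data. DESeq2 1.42.0, limma-voom, other scalings, no filter and omitted libraries were alternatives. Summed V segments were compared by exact permutation over 252 splits. Shares have exact Clopper-Pearson 95% intervals. Of the 47729 gene IDs, 47224 matched GENCODE M21.

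The 7 genes and the 16 lists (177 genes) were chosen with earlier results of these data known. Named were all 7 genes, the 3 tested genes ranking most like each, up to 3 called genes per list with the smallest p in 24 with 2 months, and the V segment with the most counts in a library. Further genes were named after their values were seen, among them Ighg2b, Iglc2, Jchain, Cd8a and the T cell and natural killer genes.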

Additional observations from a re-analysis of the deposited data

Results flagged for a closer look

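In 10 of 45 groups of 5 libraries, 1 library stood far from the other 4. The 45 groups reuse the same 25 libraries and include related genes, so how many chance would give was not tested. In replicate 1 of 24 months this was so for Igkc at 13.7 CPM and for Ighm at 63.4 CPM. In replicate 5 of 30 months it was so for Igkc at 7.58 CPM, Ccl5 at 1.70 CPM and Nkg7 at 1.07 CPM. In replicate 3 of 15 months it was so for Igkc at 2.23 CPM and for the summed immunoglobulin V segments at 1.95 CPM.

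The other 3 rest on few counts. Igha stood at 0.956 CPM in replicate 4 of 2 months, from 17 counts. Ccl5 stood at 0.364 CPM in replicate 1 of 9 months, from 10 counts, in the library where choroid plexus transcripts were lowest. Nkg7 stood at 0.151 CPM in replicate 3 of 9 months, from 4 counts.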

How the results depend on the processing

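No paired analysis was possible because the labels carry no pairing of libraries across ages. Under limma-voom 1 of 6 genes was called in 24 with 2 months, where 609 of all 17799 genes were higher and 352 lower. In 24 with 15 months limma-voom called 0 of 6, where 146 of all genes were higher and 45 lower. When only the ages compared were fitted, edgeR called 1 of 6 in 24 with 2 months. The share of all genes is not given for that fit. Without the 4 libraries of high GC content, which leaves 1 library of 30 months, 2 of 6 were called in 24 with 15 months, against 23.7% of all genes. In that fit Igha stood at -0.61 and Trbc2 at -0.38 for 30 with 2 months, and Igha at -0.38 and Trbc2 at -0.060 for 30 with 24 months. It called 3958 genes in 24 with 2 months, against 931 with all libraries, and 1297 in 30 with 2 months, against 10324. DESeq2 called 344 genes in 15 with 2 months, 36 in 15 with 9 months and 392 in 24 with 15 months, against 224, 3 and 201. With a liver covariate, chosen after seeing the data, Igha stood at 0.46 for 24 with 2 months. The causes of these shifts were not tested.

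Leaving out 1 library at a time gave 0 to 3 calls in 24 with 2 months, 1 to 4 in 30 with 2 months, 0 to 2 in 24 with 15 months, 2 to 4 in 30 with 24 months and 2 to 3 for the trend. The share of all genes passing moved too. In 24 with 2 months it was 5.23% with all libraries and 3.17% without replicate 1 of 24 months. Igha ranged over -0.49 to 0.47 in 24 with 2 months and Trbc2 over -0.12 to 0.13 in 30 with 2 months. For 30 with 24 months Igkc ranged over -1.14 to 0.28 and Ccl5 over -0.96 to 0.32. Summed immunoglobulin V segments ranged over -0.26 to 0.28 for 9, -0.17 to 0.42 for 15, 1.76 to 2.65 for 24 and 1.15 to 1.80 for 30 with 2 months. Counts of 0 to 17 per library limit what Nkg7, Ccl5, Igha and Cd79b can show before 24 months.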
